A study of Mus musculus with 16 samples.

Results

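Transcripts of cells given an siRNA against Cebpb were compared with those of cells given a control siRNA, all of them stimulated with isoproterenol. The cells were RAW 264.7, an established mouse macrophage-like line, and the assay was QuantSeq, which sequences the 3′ end of polyadenylated RNA. Of the 16 libraries of the series, 8 carried isoproterenol in their labels and were used: 4 with control siRNA and 4 with Cebpb siRNA. Each set of 4 came from 2 experiments with 2 replicates each. In all 8, isoproterenol was added 24 h after transfection of 25 nM siRNA. The labels state neither the dose nor the duration of isoproterenol. A single siRNA product was used against Cebpb and another as the control, so an effect of lowering Cebpb and an effect of that particular siRNA on other transcripts cannot be told apart. Per the labels the 4 libraries of a group are biological replicates. Of 52636 gene entries, 10850 were above the floor of 1 RPM (reads per M sequenced reads) in at least 4 of the 8 libraries and were tested.

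C/EBPβ, the product of Cebpb, is a leucine zipper transcription factor of the myeloid lineage. Isoproterenol activates β-adrenergic receptors, which raise cyclic AMP and activate protein kinase A. The kinase phosphorylates CREB, and CREB is known to drive Cebpb itself together with the rapid NR4A, FOS and CREM genes. In macrophages C/EBPβ is known for its part in alternative, or M2, activation, above all at Arg1, and in acute inflammatory genes. The title of the series names that M2 programme as its question.

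Depth was 13.7 to 24.2 M reads in these 8 libraries, with 8.60 to 15.5 M assigned to genes, and the floor stood for 13 to 24 reads. Macrophage genes were present, with Csf1r at 205, Spi1 at 71.1, Tyrobp at 243 and Cd68 at 257 RPM on average with control siRNA. Adgre1, which encodes F4/80, was low at 4.96 RPM, and Itgam was not analysed here. All 8 fibroblast, 7 epithelial and 6 B cell markers examined were listed at 0 in all 8 libraries. Several measures of the libraries moved with the siRNA. Unmapped reads were 6.63 ± 0.608% with Cebpb siRNA and 5.40 ± 0.355% with control siRNA (SD, n = 4 each). The mitochondrial ribosomal RNA mt-Rnr2 was at 32049 ± 4946 and 21389 ± 525 RPM. Each of these gave p = 0.0286 in an exact two-sided permutation test, the smallest that 4 against 4 libraries allow, and 0.0786 after Benjamini-Hochberg adjustment over 11 such measures. Their part in the results below was not tested.

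Cebpb was lower in every library given its siRNA. Its level was 100.6, 78.0, 99.1 and 90.6 RPM in the 4 control libraries and 28.5, 27.6, 25.8 and 23.9 RPM in the 4 Cebpb siRNA libraries. The highest value with the siRNA was far under the lowest control value, and the groups did not overlap. The log2 fold change was −1.74 ± 0.09 (SE; limma adjusted p = 4.01e-11), or 3.34-fold lower, with −1.61 in experiment 1 and −1.86 in experiment 2. On log2 RPM alone an exact two-sided permutation test gave p = 0.0286. The gene lies at chr2:167688915-167690418 on the plus strand of GRCm38.

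The siRNA moved a large share of the measured transcripts in both directions. With limma and an adjusted p under 0.05, 6828 of 10850 genes changed, 62.9% of those tested. Of these, 3434 were higher (31.6% of tested genes) and 3394 lower (31.3%), and 6819 had the same sign in both experiments. The groups of 4 did not overlap in 5294 tested genes, or 48.8%. Large changes were more often decreases. In a test against a 2-fold threshold, 389 genes (3.59%) fell and 177 (1.63%) rose. By estimate alone, 792 called genes were at least 2-fold lower and 512 at least 2-fold higher, of 10850 tested. The 2-fold counts of the lists below are by estimate, so they are read against 792 and 512. The median log2 fold change of all tested genes was 0.01. Because most genes were called, a count of called members is read below against these shares. Of the tested genes 85 were listed at 0 in all 4 control libraries and 56 in all 4 Cebpb siRNA libraries, and these passed the filter on low values only through the group in which they were higher.

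Above a mean level of 10 RPM, 7 of the 12 largest decreases were genes of DNA replication, mitosis or the control of division. Cdca7, a chromatin factor of proliferating cells, was at 29.9, 25.5, 22.1 and 22.96 RPM with control siRNA and at 1.68, 2.54, 1.64 and 1.52 RPM with Cebpb siRNA. Its log2 fold change was −3.73 ± 0.14 (limma adjusted p = 7.71e-13), a 13.3-fold decrease, the lowest value of all 10850 tested genes. Cse1l, the export receptor that returns importin α to the cytoplasm, was at 206, 206, 218 and 216 RPM in the controls and at 17.9, 20.9, 21.98 and 22.4 RPM with the siRNA. It fell by 3.29 ± 0.07 on the log2 scale (limma adjusted p = 8.92e-16). The control libraries lay within a narrow band and every Cebpb siRNA library was about an order of magnitude under it. Mcm3, a subunit of the replicative helicase, went from 200, 228, 216 and 208 RPM to 20.0, 26.0, 26.4 and 30.5 RPM (log2 −3.01 ± 0.09, limma adjusted p = 7.63e-14).

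In neither gene did the groups overlap, and the same held for the other genes among the 12 largest decreases. The checkpoint ATPase Trip13 (log2 −2.81 ± 0.10), the Cdk1-inhibiting kinase Wee1 (−2.76 ± 0.18), the fork protection factor Timeless (−2.62 ± 0.13), the mitotic kinase Pbk (−2.62 ± 0.12) and the transcription factor Mybl2, or B-Myb (−2.53 ± 0.19), belong to the cell cycle. Fam20c, a protein kinase of the secretory pathway, fell by 2.58 ± 0.06 on the log2 scale. Rps26, a ribosomal protein with near-identical copies in the genome, which makes its read assignment uncertain, fell by 2.56 ± 0.06.

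Among the 12 were also a chemokine and a chemokine receptor of macrophages. Ccl3, a chemokine that draws leukocytes, was at 196, 237, 235 and 249 RPM with control siRNA and at 26.3, 30.7, 32.7 and 36.7 RPM with Cebpb siRNA. The change was −2.80 ± 0.07 on the log2 scale (limma adjusted p = 1.4e-14), 6.99-fold lower. Cx3cr1, the fractalkine receptor, was at 117 to 133 RPM in the controls and at 16.8 to 24.4 RPM with the siRNA (−2.59 ± 0.10, limma adjusted p = 1.3e-12).

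Above the same level and leaving out provisional gene symbols, the 12 largest increases were of more mixed function. Tm7sf3, a membrane protein, was near the floor in the controls, at 2.42, 1.78, 1.85 and 1.98 RPM, and at 20.9, 17.1, 16.5 and 22.1 RPM with Cebpb siRNA (log2 3.31 ± 0.15, limma adjusted p = 6.95e-12). Oas2, an interferon-induced enzyme that makes oligoadenylates in response to double-stranded RNA, was at 3.36, 3.97, 8.93 and 11.1 RPM in the controls and at 37.1, 36.5, 54.4 and 55.3 RPM with the siRNA (2.96 ± 0.14, limma adjusted p = 4.6e-11). In both groups the libraries of experiment 2 were the higher ones for Oas2. Car2, a carbonic anhydrase of bone-resorbing cells among others, rose from 19.3 to 22.4 RPM to 103, 115, 148 and 208 RPM (2.78 ± 0.14, limma adjusted p = 2.51e-10), with a much wider spread in the siRNA libraries than in the controls.

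Havcr2, an immune checkpoint receptor, rose from 3.44 to 5.64 RPM to 25.8 to 33.5 RPM (log2 2.72 ± 0.14), and Cytip, which binds cytohesins and limits leukocyte adhesion, from 7.69 to 10.1 RPM to 41.2 to 49.2 RPM (2.46 ± 0.10). Myo6, an actin motor, rose by log2 2.77 ± 0.12. Mxd4, a MAX partner that opposes MYC, rose by 2.57 ± 0.13 and the poly(A) polymerase Fam46c by 2.5 ± 0.14. The junction proteins F11r and Jup each rose by 2.43. The 2 histone genes among the 12, Hist1h2bc (2.63 ± 0.12) and Hist1h4i (2.48 ± 0.14), have close copies, and their read assignment is uncertain.

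**Figure D1:**
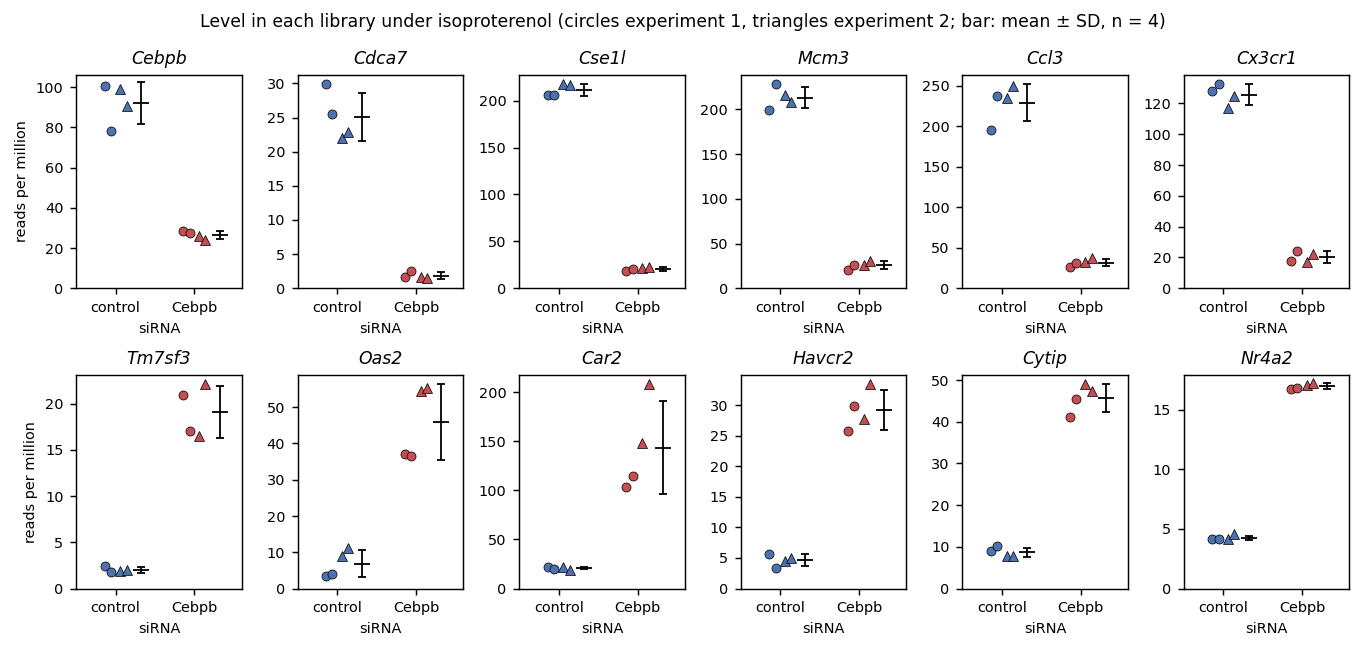
Level in RPM (y axis, linear from 0) of 12 named genes in each of the 8 isoproterenol libraries, with control siRNA in blue and Cebpb siRNA in red, circles for experiment 1, triangles for experiment 2, and the mean ± SD of 4 libraries. In all 12 panels the groups do not overlap: Cebpb lies between 78.0 and 100.6 RPM in the controls and between 23.9 and 28.5 RPM with its siRNA.

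Genes of DNA replication fell as a whole list. All 46 tested members were called lower, against 31.3% of all tested genes. By estimate 38 of them fell at least 2-fold, beside 792 of all 10850 tested genes. The list median was −1.38 on the log2 scale, beside 0.01 for all genes, and in none of the 46 did the groups overlap. Besides Mcm3, the helicase subunit Mcm6 fell from 231 ± 22.5 to 50.2 ± 4.15 RPM (SD, n = 4 each). The helicase activator Mcm10 fell from 50.7 ± 5.78 to 9.28 ± 1.13 RPM, and the origin-licensing ATPase Cdc6 from 51.3 ± 3.29 to 10.3 ± 1.13 RPM. The summed level of the list was 2770 to 3070 RPM in the control libraries and 912 to 1109 RPM in the Cebpb siRNA libraries. With bulk RNA, fewer cells in S phase and less of these transcripts per cell cannot be told apart.

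Genes of mitosis and the spindle checkpoint followed the same direction, 37 of 38 falling with a median of −1.17. The member that was not called, picked here after its value was seen, was Bub3 (−0.12 ± 0.07, limma adjusted p = 0.155). Cdk1, the kinase that drives entry into mitosis, fell from 218 ± 26.9 to 68.0 ± 8.24 RPM.

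The regulators of the cell cycle went both ways. Of 38 tested, 13 rose (34.2%) and 17 fell (44.7%), beside 31.6% and 31.3% of all tested genes, with a median of −0.10. Among those that drive division, the phosphatase Cdc25a fell by 1.85 ± 0.07 on the log2 scale, the transcription factor E2f2 by 2.45 ± 0.09 and the G1 kinase Cdk6 by 1.87 ± 0.08. The antiproliferative gene Btg2, a target of p53, rose from 16.6 ± 0.504 to 69.996 ± 2.97 RPM (2.14 ± 0.07). Of 18 tested p53 targets 12 rose, with a median of 0.58, among them Ccng1 (1.92 ± 0.07) and Zmat3 (1.68 ± 0.07). The exceptions, picked after their values were seen, were Ei24 (−1.73 ± 0.08), Plk2 (−1.19 ± 0.07), Gdf15 (−1.04 ± 0.14) and Aen (−0.28 ± 0.11), which fell.

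Histone genes went both ways, 11 of 23 higher (47.8%) and 10 lower (43.5%), beside 31.6% and 31.3% of all tested genes. The linker histone Hist1h1b fell from 88.8 ± 11.7 to 18.9 ± 2.56 RPM, while Hist3h2a rose from 10.1 ± 1.10 to 41.5 ± 6.90 RPM. Of 27 nuclear transport genes 19 fell, with a median of −0.56. Cse1l stood apart in size. The nucleotide exchange factor of Ran, Rcc1, fell by 1.51 ± 0.10, the exportin Xpo4 by 1.39 ± 0.09 and Ranbp1 by 0.78 ± 0.07 on the log2 scale. Of 24 tested BCL2 family and caspase genes 11 rose (45.8%) and 6 fell (25.0%). Casp1, the caspase that cleaves IL-1β, rose by 0.88 ± 0.07, Casp4 by 0.82 ± 0.10 and Casp6 by 1.58 ± 0.16. Bmf, a pro-apoptotic member, was listed at 0 in the 4 control libraries. With the siRNA its mean was 3.03 ± 0.476 RPM, so this member of the 11 could be tested only through the siRNA libraries.

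**Figure D2:**
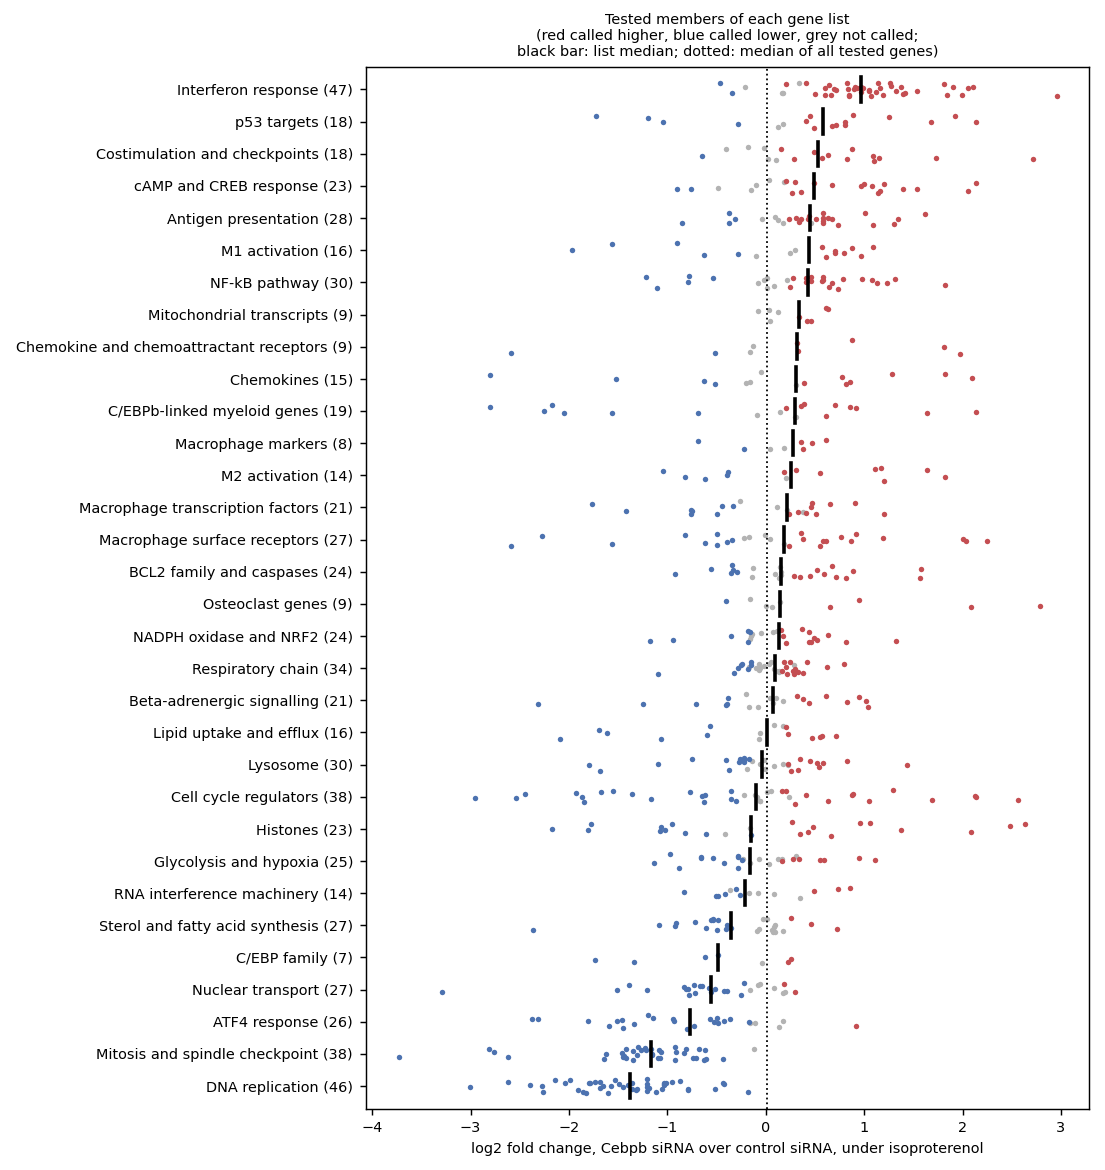
Log2 fold change of Cebpb siRNA over control siRNA under isoproterenol (x axis) for every tested member of the 32 lists with at least 7 tested genes (y axis, number tested in brackets). Red points were called higher, blue lower and grey not called, black bars are list medians and the dotted line is the median of all tested genes; DNA replication has the lowest median (−1.38) and the interferon response the highest (0.97).

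For alternative activation, several well-known genes, Arg1 among them, could not be measured. Arg1, Il10, Vegfa and Chil3 were listed at 0 in all 16 libraries, and Mrc1 was above the floor in 2 of 8 libraries, at no more than 1.34 RPM. Of 26 M2 genes 14 were tested, 8 rose and 5 fell, with a median of 0.26. The 8 include Ccl22, which was listed at 0 in all 4 controls and so could be tested only through the siRNA libraries. The lectins Mgl2 and Clec10a rose from 45.1 ± 13.5 to 96.4 ± 23.6 RPM and from 123 ± 14.1 to 259 ± 58.5 RPM. Il1rn, the secreted antagonist of the IL-1 receptor, rose from 169 ± 53.5 to 516 ± 209 RPM (log2 1.64 ± 0.09, limma adjusted p = 1.03e-10), and the transcription factor Klf4 from 7.39 ± 1.27 to 16.2 ± 1.6 RPM. The members that fell, picked after their values were seen, were the scavenger receptor Msr1 (−0.62 ± 0.06), the coactivator Ppargc1b (−1.05 ± 0.11), the lipid receptor Trem2 (−0.40 ± 0.06), the glucan receptor Clec7a (−0.82 ± 0.13) and Il4ra (−0.39 ± 0.10).

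Genes of classical, or M1, activation were also mixed. Of 24 listed 16 were tested, 8 rose and 5 fell, with a median of 0.44. Nos2 and Il6 were listed at 0 in all 16 libraries. Tnf, the inflammatory cytokine, was at 48.8, 53.2, 51.7 and 48.1 RPM with control siRNA and at 37.1, 43.8, 36.7 and 42.5 RPM with Cebpb siRNA. These groups did not overlap, and the decrease was small (log2 −0.28 ± 0.07, limma adjusted p = 0.00357). In experiment 2 alone it was not called (−0.26, limma adjusted p = 0.0649). Il1b was not called (0.30 ± 0.19, limma adjusted p = 0.177), at 3.92 ± 0.865 and 4.68 ± 1.23 RPM. Fcgr1, the high-affinity IgG receptor, fell from 26.8 ± 9.0 to 8.46 ± 1.56 RPM, and Gpr84, a receptor for medium-chain fatty acids, from 57.6 ± 11.1 to 29.6 ± 5.36 RPM. The transcription factor Irf5 and the costimulator Cd86 rose, by 0.80 ± 0.07 and 0.88 ± 0.08.

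Within the C/EBP family, 4 of 7 members fell and 2 rose, while with values as deposited 4 fell and 0 rose. Ddit3, the stress-induced inhibitor also called CHOP, fell from 53.9 ± 7.21 to 21.1 ± 6.44 RPM, and Cebpg from 48.9 ± 2.31 to 33.5 ± 1.16 RPM. Cebpa, close to the floor at 1.83 ± 0.477 RPM in the controls, was called lower (−0.61 ± 0.21, limma adjusted p = 0.0171), and it lost the call without replicate 2 of experiment 1 or replicate 1 of experiment 2 with control siRNA (adjusted p = 0.0582 and 0.0859) and without replicate 1 of experiment 2 with Cebpb siRNA (0.0649). The increases, Cebpd (0.22 ± 0.09) and Cebpe (0.26 ± 0.11), were small and were picked after their values were seen. A list of myeloid genes that the literature ties to C/EBPβ had 19 tested members, of which 9 rose and 6 fell. With Ccl3, the protease inhibitor Slpi fell from 94.6 ± 7.95 to 22.1 ± 3.44 RPM. S100a8, a calcium-binding protein of neutrophils and of some macrophages, was at 5.03 ± 0.587 RPM in the controls and listed at 0 in all 4 Cebpb siRNA libraries. This member of the 6 could thus be tested only through the controls. Trem1, a receptor that amplifies myeloid inflammation, rose from 7.73 ± 1.06 to 32.7 ± 3.97 RPM.

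Chemokines and their receptors moved both ways. Of 15 tested chemokines 7 rose and 4 fell. Among the 7 is Ccl22, listed at 0 in all 4 controls and so tested only through the siRNA libraries. Ccl4, the close relative of Ccl3, fell from 640 ± 39.6 to 215 ± 18.5 RPM (log2 −1.52 ± 0.06, limma adjusted p = 2.53e-12). The scavenging chemokine Cxcl16 rose from 76.4 ± 5.10 to 178 ± 14.6 RPM and Ccl9 from 398 ± 79.3 to 676 ± 159 RPM. Among 9 tested chemoattractant receptors 5 rose, and the decreases were Cx3cr1 and, picked after its value was seen, Cxcr3 (−0.52 ± 0.19). Cxcr4, the receptor of Cxcl12, rose from 20.5 ± 1.57 to 69.8 ± 12.7 RPM, Ccr2, the receptor of Ccl2, from 2.32 ± 0.141 to 8.76 ± 0.871 RPM, and the platelet-activating factor receptor Ptafr by 0.88 ± 0.07 on the log2 scale.

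Of 27 tested macrophage surface receptors 13 rose and 9 fell. The lectins Clec4a2 (log2 2.25 ± 0.10) and Clec12a (2.04 ± 0.10) and the efferocytosis-related receptor Cd93 (2.00 ± 0.09) rose most clearly. Of 21 tested macrophage transcription factors 9 rose (42.9%) and 8 fell (38.1%), beside 31.6% and 31.3% of all tested genes. Spi1, which encodes PU.1, rose from 71.1 ± 4.13 to 95.0 ± 14.0 RPM. Irf8, its partner in the monocytic lineage, fell from 143 ± 6.29 to 82.4 ± 11.3 RPM, and the repressor Bhlhe41 from 50.1 ± 2.69 to 18.0 ± 1.73 RPM. Of the general macrophage markers 8 were tested, 4 rose and 2 fell, with Csf1r, the receptor of the lineage growth factor, at 205 ± 12.2 and 302 ± 39.2 RPM. Markers of other blood cells were near the floor: Lck alone of 9 T and NK cell markers, S100a8 alone of 9 neutrophil markers, and Batf3 and Zbtb46 of 8 dendritic cell markers were tested. Lck was called lower (−0.99 ± 0.16) and Batf3 lower (−1.76 ± 0.17), each below 10 RPM in both groups.

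Interferon-stimulated genes rose across the list. These genes are induced after sensing of foreign nucleic acid or exposure to interferon. Of 47 tested, 41 were called higher against 31.6% of all tested genes, 21 by at least 2-fold, and the median was 0.97. Samhd1, a nucleotide-degrading restriction factor, rose from 109 ± 24.4 to 218 ± 34.9 RPM, Parp14 from 55.6 ± 24.5 to 136 ± 47.2 RPM and Oasl2 from 7.42 ± 5.19 to 27.9 ± 15.8 RPM. The members that fell, picked after their values were seen, were Irf9 (−0.47 ± 0.08) and Parp12 (−0.35 ± 0.13). The 4 that were not called were Ifit2 (0.17 ± 0.11), Ifit3 (0.34 ± 0.22), Ifi27 (0.16 ± 0.10) and Rsad2 (−0.21 ± 0.29).

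The level of this list also differed between the experiments. The groups of 4 overlapped in 25 of the 47 genes and did not overlap in 22. That is near the share of all tested genes, of which 48.8% had no overlap. Its summed level in experiment 1 was 973 and 1058 RPM with control siRNA and 2166 and 2047 RPM with Cebpb siRNA. In experiment 2 it was 2004 and 2179 RPM with control siRNA and 3694 and 3048 RPM with Cebpb siRNA. Within each experiment both siRNA libraries were above both controls, while the controls of experiment 2 were level with the siRNA libraries of experiment 1. The list median was 1.13 in experiment 1 and 0.82 in experiment 2. Without the experiment term in the fit, 25 of the 47 were called higher.

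**Figure D3:**
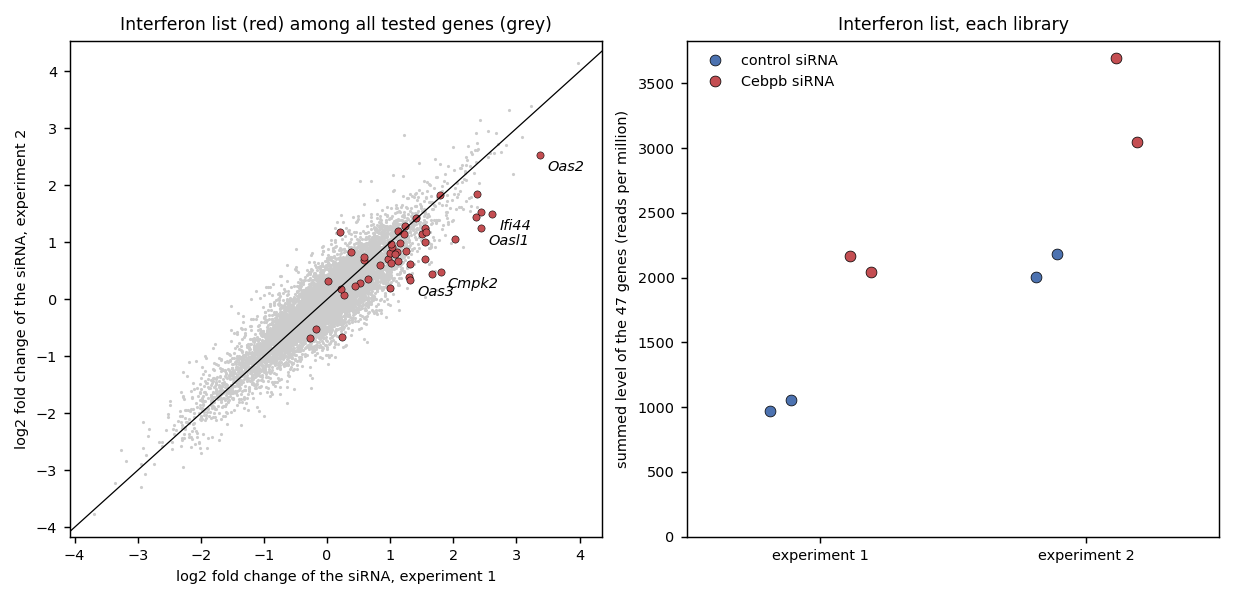
Left, log2 fold change of the siRNA in experiment 1 (x axis) and experiment 2 (y axis) for the 47 interferon genes (red) and all tested genes (grey), with the line of equal effects. Right, summed level of the 47 genes in RPM (y axis from 0) in each of the 8 libraries, control siRNA in blue and Cebpb siRNA in red: in experiment 1 the controls are at 973 and 1058 RPM and in experiment 2 at 2004 and 2179 RPM.

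Genes of antigen presentation and costimulation rose more often than they fell. Of 28 tested antigen presentation genes 19 rose, with a median of 0.45. Cd74, the invariant chain of class II molecules, rose from 24.8 ± 2.90 to 73.5 ± 10.8 RPM, the peptide-loading chaperone Tapbp from 102 ± 12.9 to 198 ± 32.5 RPM and B2m, the light chain of class I molecules, from 321 ± 54.8 to 510 ± 41.6 RPM. The 4 decreases were H2-Q7 (−0.85 ± 0.21), Canx (−0.37 ± 0.06), Pdia3 (−0.38 ± 0.06) and Calr (−0.31 ± 0.06); the last 3 are chaperones of the endoplasmic reticulum, and all 4 were picked after their values were seen. Of 18 tested costimulation and checkpoint genes 12 rose, among them Tnfrsf9, a receptor of activated lymphocytes and myeloid cells, from 16.9 ± 4.53 to 53.5 ± 14.1 RPM and the adhesion ligand Nectin2 from 10.7 ± 4.06 to 21.8 ± 3.21 RPM. The decrease was Cd84 (−0.64 ± 0.12), likewise picked after its value was seen.

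Of 30 NF-κB pathway genes 19 rose and 5 fell, with a median of 0.43. The signalling adaptor Traf1 rose from 23.5 ± 0.424 to 80.7 ± 15.8 RPM and the subunit Rel from 29.1 ± 2.09 to 65.5 ± 4.43 RPM. Bcl10, which carries antigen and lectin receptor signals to NF-κB, fell from 44.9 ± 3.88 to 18.6 ± 1.25 RPM. The other decreases were Plek (−0.78 ± 0.07) and, picked after their values were seen, Ikbke (−1.10 ± 0.10), Tnfaip2 (−0.79 ± 0.07) and Sqstm1 (−0.54 ± 0.06).

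Transcripts induced by cyclic AMP, the messenger that isoproterenol raises, were mostly higher with the siRNA. In the list of cAMP and CREB targets 23 were tested, of which 16 rose and 2 fell, with a median of 0.50. Without isoproterenol the median siRNA effect on the tested members was 0.32. The siRNA effect was called different with and without isoproterenol for Nr4a1 and Nr4a2 alone of this list. The 16 include Nr4a1, another orphan nuclear receptor, which was listed at 0 in all 4 controls and so could be tested only through the siRNA libraries. Btg2, which is also on this list, is given above. Nr4a2, an orphan nuclear receptor induced within minutes to hours of cAMP signalling, was at 4.16, 4.14, 4.16 and 4.54 RPM with control siRNA and at 16.7, 16.8, 17.1 and 17.3 RPM with Cebpb siRNA. The replicates of Nr4a2 were tight and the groups lay far apart (log2 2.06 ± 0.10, limma adjusted p = 2.69e-11). The AP-1 genes Junb and Fos rose from 45.6 ± 1.17 to 97.7 ± 3.33 RPM and from 24.6 ± 1.6 to 52.2 ± 4.85 RPM. The decreases, picked after their values were seen, were Atf3 (−0.90 ± 0.07) and Egr1 (−0.76 ± 0.12).

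Of 21 tested components of β-adrenergic signalling 8 were higher (38.1%) and 6 lower (28.6%), with a median of 0.07. These shares are near the 31.6% and 31.3% of all tested genes. Prkar2a, a regulatory subunit of protein kinase A, fell from 139 ± 8.87 to 27.0 ± 4.29 RPM (log2 −2.32 ± 0.09, limma adjusted p = 1.87e-12). The catalytic subunit Prkacb rose from 53.6 ± 3.68 to 106 ± 1.88 RPM. The adenylyl cyclase Adcy7 rose from 47.5 ± 4.13 to 92.1 ± 1.89 RPM and Creb1 from 59.2 ± 4.41 to 100.95 ± 8.06 RPM.

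Of the ATF4 response most tested members fell. ATF4 drives amino acid synthesis and transport under stress. Of 26 tested members 21 fell, with a median of −0.77, and 10 fell at least 2-fold. The serine synthesis enzyme Psat1 fell from 198 ± 8.54 to 69.6 ± 2.46 RPM, the mitochondrial serine hydroxymethyltransferase Shmt2 from 87.5 ± 3.94 to 17.0 ± 2.97 RPM, the cysteine-producing enzyme Cth from 84.2 ± 7.23 to 15.9 ± 3.999 RPM and the pseudokinase Trib3 from 75.5 ± 4.98 to 20.8 ± 2.33 RPM. Ddit4, picked after its value was seen, was the member called higher (0.92 ± 0.09).

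In sterol and fatty acid synthesis 14 of 27 genes were lower and 3 higher, with a median of −0.35. Hsd17b7, a reductase of the late sterol pathway, fell from 114 ± 12.5 to 21.5 ± 2.92 RPM. The increases, Hmgcs1 (0.72 ± 0.08), Msmo1 (0.46 ± 0.06) and Scd2 (0.26 ± 0.06), were picked after their values were seen. Of 16 tested lipid uptake and efflux genes 6 rose and 6 fell (37.5% each), beside 31.6% and 31.3% of all tested genes. Lipoprotein lipase, Lpl, fell from 632 ± 107 to 187 ± 29.4 RPM, and the fatty acid carriers Fabp5 and Fabp4 from 220 ± 44.7 to 68.8 ± 12.7 RPM and from 14.6 ± 8.68 to 2.94 ± 0.903 RPM.

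Lysosomal genes were divided, 10 of 30 higher and 12 lower. Gpnmb, a lysosomal membrane glycoprotein, fell from 130 ± 13.2 to 39.1 ± 7.01 RPM and the proton pump subunits Atp6v0d1 and Atp6v1a by 1.79 ± 0.10 and 1.10 ± 0.08 on the log2 scale, while Laptm5 rose by 0.82 ± 0.06. Of 9 tested osteoclast genes 4 rose: Car2, Bmp2 (2.08 ± 0.13), the fusion receptor Dcstamp (0.95 ± 0.10) and Nfatc1 (0.66 ± 0.12). The proton pump subunit Tcirg1, picked after its value was seen, fell (−0.40 ± 0.08), and the other 4 were not called. Of 24 oxidase and NRF2 genes 12 rose and 6 fell, and with values as deposited 9 rose and 8 fell. Cybb, the catalytic core of the phagocyte NADPH oxidase, fell from 206 ± 28.0 to 87.1 ± 9.98 RPM and Gpx1 rose from 650.2 ± 32.6 to 1100.4 ± 69.6 RPM. Glycolysis and hypoxia genes were higher in 7 of 25 (28.0%) and lower in 11 (44.0%), with Aldoc up by 0.95 ± 0.06 and Pdk1 down (−1.14 ± 0.11).

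Of 34 respiratory chain subunits 13 were higher (38.2%) and 8 lower (23.5%), beside 31.6% and 31.3% of all tested genes. The median was 0.10, and with values as deposited 8 were higher and 9 lower. Ndufv2 was the exception in size, falling from 86.2 ± 4.45 to 39.0 ± 4.18 RPM. Of 9 tested mitochondrial transcripts 5 rose and none fell, mt-Rnr1 by 0.61 ± 0.07 and mt-Rnr2 by 0.63 ± 0.08, mt-Nd5 by 0.42 ± 0.07 and mt-Cytb by 0.34 ± 0.06. Genes of the RNA interference machinery, which an siRNA enters, were higher in 3 of 14 (21.4%) and lower in 6 (42.9%). Tnrc6a, a scaffold of the silencing complex, rose by 0.85 ± 0.07 and the export receptor Xpo5 fell by 0.83 ± 0.12 on the log2 scale.

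In cells not given isoproterenol, most of these genes moved in the same direction. That comparison used the other 8 libraries, so the 2 contrasts share none, though they share the siRNA and the experiments. Of the 6828 genes called under isoproterenol, 6757 (99.0%) had the same sign without it. Across 10850 genes the 2 sets of log2 fold changes had a Pearson r of 0.952, a description over genes, which are not independent replicates. The difference of the effects was tested directly with all 16 libraries. It was called in 26 of 11141 genes, 0.233%, 13 in each direction, and 707 genes had an unadjusted p under 0.05. Of the 26, 17 had a mean level of at least 10 RPM. Without the experiment term in the fit, 10 genes were called, and of these 17 differences 14 lost their call, those of Nr4a2, Cytip and Osbp2 being the exceptions.

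Nr4a2 had the largest such difference of the genes above a mean level of 10 RPM. Without isoproterenol it was at 3.29 ± 0.654 RPM with control siRNA and 3.84 ± 0.774 RPM with Cebpb siRNA (SD, n = 4 each). With isoproterenol the means were 4.25 ± 0.193 and 17.0 ± 0.25 RPM. The 4 libraries with both treatments thus stood above all 12 others. The siRNA effect was larger with isoproterenol by log2 1.76 ± 0.20 (limma adjusted p = 6.66e-05).

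Cytip was likewise highest with both treatments, at 4.91 ± 0.335, 9.89 ± 1.6, 8.67 ± 1.11 and 45.7 ± 3.44 RPM in the same sequence of groups, a difference of 1.39 ± 0.16 (limma adjusted p = 9.75e-05). For Havcr2 the difference was 1.00 ± 0.21 (limma adjusted p = 0.0497) and for Neurl3, an E3 ubiquitin ligase, 0.70 ± 0.13 (limma adjusted p = 0.0114). All 3 were increases that were larger under isoproterenol. The Havcr2 difference lost its call when any of 13 of the 16 libraries was left out (adjusted p up to 0.129), and that of Neurl3 without replicate 1 of experiment 2 with both treatments (0.0509).

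Of the genes whose log2 fold change with the siRNA was lower under isoproterenol, some were ones the siRNA raised and some ones it lowered. Osbp2, an oxysterol-binding protein, went from 3.93 ± 0.644 to 21.7 ± 1.53 RPM with the siRNA alone and from 24.2 ± 4.06 to 52.1 ± 6.90 RPM under isoproterenol, so the fold increase was smaller (difference −1.39 ± 0.17, limma adjusted p = 0.000137). Pcdh7, a protocadherin, had a difference of −0.88 ± 0.12. Lyz2, the macrophage lysozyme, was at 656 ± 155 and 632 ± 38.3 RPM without isoproterenol and at 1110 ± 111 and 664 ± 80.6 RPM with it. The siRNA lowered Lyz2 under isoproterenol (−0.69 ± 0.06 in the 8 libraries), was not called without it (0.06 ± 0.07), and the difference was −0.74 ± 0.09 (limma adjusted p = 0.000148).

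Slpi and Acod1, which encodes the enzyme that makes itaconate, fell in both settings and fell further under isoproterenol, with differences of −0.87 ± 0.13 and −0.99 ± 0.19 (limma adjusted p = 0.000846 and 0.0159). The Acod1 difference lost its call without 1 of 4 libraries: replicate 1 of either experiment with control siRNA, and replicate 2 of experiment 1 or replicate 1 of experiment 2 with control siRNA and isoproterenol (adjusted p = 0.0567 to 0.0637). Cebpb itself was at 76.1 ± 11.2 and 22.9 ± 8.83 RPM without isoproterenol, a log2 fold change of −1.73 ± 0.19.

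Several genes described above also had a lower log2 fold change under isoproterenol, either a smaller increase or a larger decrease. For Il1rn the means were 111 ± 37.0 and 513 ± 179 RPM without isoproterenol and 169 ± 53.5 and 516 ± 209 RPM with it, a difference of −0.65 ± 0.11 (limma adjusted p = 0.00469), so its fold increase was the smaller under isoproterenol. The same held for Ccl9 (−0.46 ± 0.07, limma adjusted p = 0.00241), while Ccl4 (−0.58 ± 0.09, limma adjusted p = 0.00241) and Gpr84 (−0.44 ± 0.09, limma adjusted p = 0.0255) fell further. The Gpr84 difference lost its call without any of 8 of the 16 libraries (adjusted p up to 0.0826) and with values as deposited (0.0795). The remaining called differences above 10 RPM, picked after their values were seen, were Cebpd (−0.62 ± 0.13), Ung (−0.52 ± 0.11), Cdr2 (−0.51 ± 0.10) and Clec4e (−0.37 ± 0.08). Each of these 4 lost its call with values as deposited and without any of at least 11 of the 16 libraries.

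**Figure D4:**
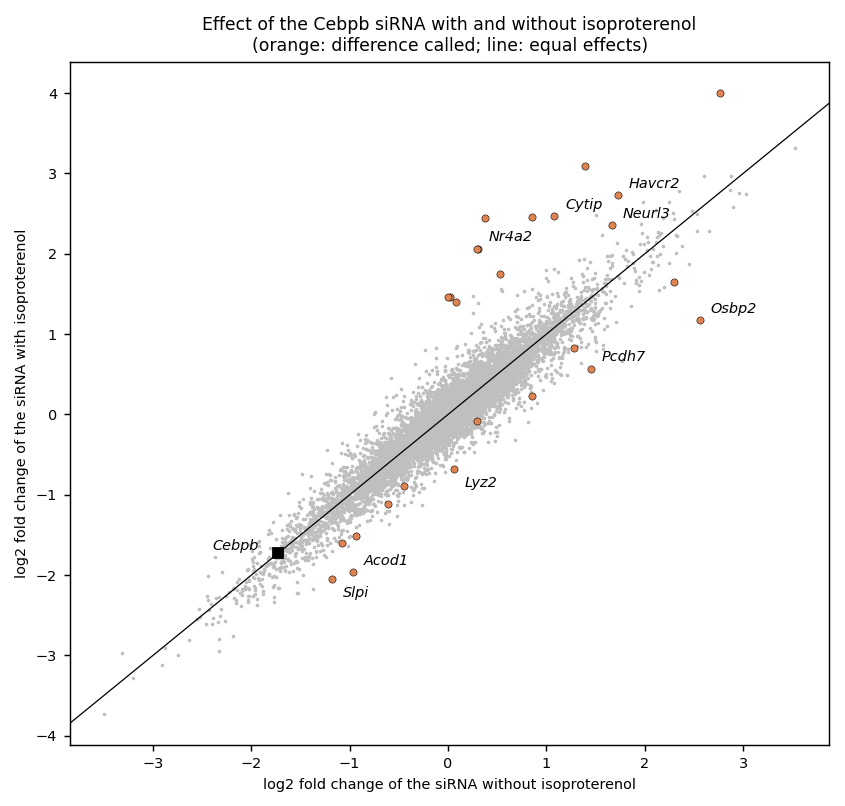
Log2 fold change of Cebpb siRNA over control siRNA without isoproterenol (x axis) and with it (y axis), from a fit of all 16 libraries, for 10850 genes (grey). The genes whose difference was called are in orange, 9 of the 17 above a mean of 10 RPM are named (up to 5 with the largest difference in each direction), Cebpb is the black square, and the line marks equal effects; Nr4a2 and Cytip lie above the line, Osbp2 and Lyz2 below it.

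The siRNA effect differed between the 2 experiments in 19 of 10850 genes, 0.175%, with 1333 at an unadjusted p under 0.05. This count is not stable: leaving out any of the 8 libraries brought it to between 0 and 2, except for replicate 1 of experiment 2 with Cebpb siRNA, without which it was 163. Above a mean level of 10 RPM, the 5 most negative differences were in interferon-inducible genes. Ifi44 was at 19.0 and 23.1 RPM in the controls and 133 and 116 RPM with the siRNA in experiment 1, and at 90.4 and 102 against 279 and 239 RPM in experiment 2 (difference −1.12 ± 0.15, limma adjusted p = 0.00798). Oasl1 (−1.19 ± 0.23), Cmpk2 (−1.32 ± 0.23), Oas3 (−0.97 ± 0.19) and Ifi204 (−0.95 ± 0.17) also had the smaller effect in experiment 2. Their control levels, like that of Ifi44, were the higher in experiment 2.

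In the other direction, the nuclear noncoding RNA Neat1 fell by 1.41 on the log2 scale in experiment 1 and was at −0.24 in experiment 2 (difference 1.17 ± 0.21). The inhibitor Nfkbie rose by 0.58 and 1.67 (1.09 ± 0.18). Mmp9, a matrix protease, was at −0.23 and 0.52 (0.75 ± 0.12) and Neurl1b at −0.24 and 0.81 (1.05 ± 0.20), and neither was called over both experiments. Mmp9 control levels were 199 and 201 RPM in experiment 1 and 107 and 115 RPM in experiment 2, while its siRNA libraries lay between 143 and 174 RPM.

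Short words in the 3′ UTR were read because an siRNA can lower transcripts whose 3′ UTR pairs with a few bases at its 5′ end, as a microRNA does. The word AACTTGT came from an earlier search of these same libraries, so what follows describes it and is no independent support, and no source used here gives the bases of either siRNA. The word is present in the Cebpb transcript, outside its 3′ UTR, and in the 3′ UTR of 4 of the 12 largest decreases. These stretches of 30 bases, 5′ to 3′ on the sense strand with the word in capitals, are from GENCODE transcripts on GRCm38.
Cebpb: ctcagcaccctgcggAACTTGTtcaagcag
Cdca7: agagaagagccccttAACTTGTttacacag
Cse1l: gtttccaacctcttgAACTTGTcacaaact
Trip13: cgttttgtaatattaAACTTGTtttcagaa
Mybl2: aagatgggttctgagAACTTGTtggagcgc
They lie at chr2:167689844-167689873 on the plus strand (Cebpb), chr2:72486109-72486138 on the plus strand (Cdca7), chr2:166945881-166945910 on the plus strand (Cse1l), chr13:73912458-73912487 on the minus strand (Trip13) and chr2:163083808-163083837 on the plus strand (Mybl2).

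The median fold change was lower in each class with a longer match. Of the tested genes, 9976 (91.9%) had an annotated 3′ UTR. The 449 genes holding the 8-base form AACTTGTA had a median log2 fold change of −0.37, and 56.1% were called lower. The 1086 with AACTTGT but not the longer form had a median of −0.20 (48.1% lower), and the 709 with ACTTGTA alone −0.16 (44.0% lower). The 1689 genes with no more than the core ACTTGT were at −0.02. The 6043 genes without the core were at 0.08, with 26.3% lower and 36.4% higher.

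Longer 3′ UTRs hold more words, so the classes were also read at like length. Among 3′ UTRs of up to 500 bases the median was −0.43 in 58 genes with AACTTGT and 0.03 in 1753 without the core. Between 2000 and 4000 bases it was −0.21 in 606 genes and 0.12 in 1044. Of the 12 largest decreases 8 held the core or a longer form and 4 did not. Of the 11 largest increases with a 3′ UTR, 2 held it and 9 did not. Among all 9976 genes with a 3′ UTR, 6043 held no core. These small sets were not matched for 3′ UTR length.

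**Figure D5:**
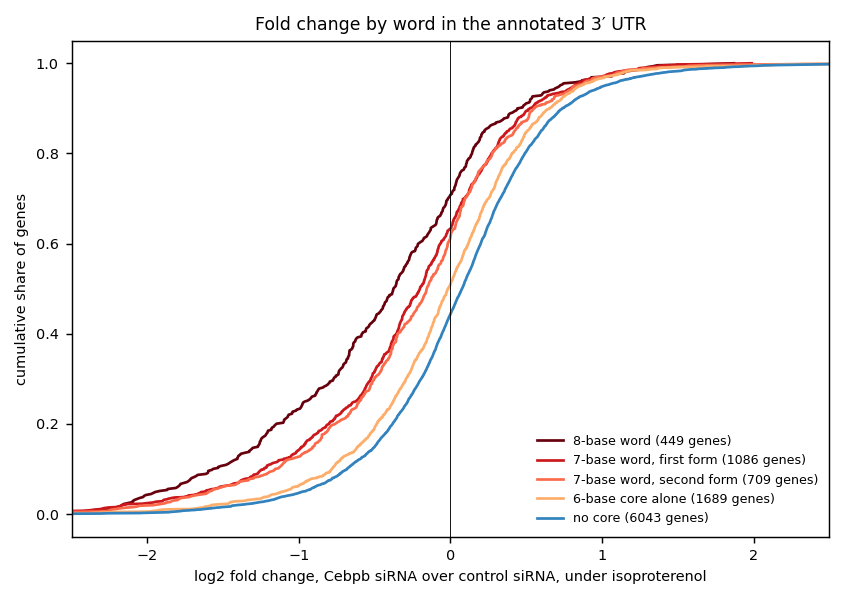
Cumulative share of genes (y axis) by log2 fold change of Cebpb siRNA over control siRNA under isoproterenol (x axis), in 5 classes of word in the annotated 3′ UTR. The curve of the 449 genes with the 8-base word lies farthest to the left (median −0.37) and that of the 6043 genes without the core farthest to the right (median 0.08).

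The list counts were read again in members whose 3′ UTR lacks the core. Of all 6043 genes without the core, 26.3% were called lower and 36.4% higher. All 34 such DNA replication genes fell, with a median of −1.38, and all 25 such mitosis genes, with a median of −1.07. Of 36 such interferon genes 31 rose (median 0.97), and of 16 such ATF4 genes 11 fell (median −0.55). Of 16 such cAMP and CREB targets, Nr4a2 among them, 12 rose (median 1.02). This reading was added after the data were seen, and the word came from these same libraries. The cause of the changes in these lists was not tested.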

How the data were processed

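The submitters' processing notes name STAR 2.5.3a and the GRCm38 build, and no source used here names the counter or its use of strand. The authors deposited log2 values, which the values themselves show to be log2 of reads per M sequenced reads (RPM), with 1 RPM or less listed as 0; multiplied back, 100% gave whole reads within 0.1 read. Differences of the 899 tested genes at the floor in at least 1 library are understated. Since the values are log2 and not counts, limma 3.58.1 (trend, robust) was used on values brought to a common scale by trimmed mean log ratios (30% by ratio, 5% by level), with a common floor, siRNA and experiment as terms, and Benjamini-Hochberg adjustment over all tested genes. Differences between experiments and with and without isoproterenol were interaction terms; treat gave the 2-fold test. Levels are unscaled RPM ± SD, and fold changes log2 ± SE.

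The genes and the 38 lists were chosen with earlier results of these data known. Named are the 12 highest and 12 lowest called genes of at least 10 RPM. These had the same sign in both experiments and no provisional symbol. Also named are up to 5 and 5 called differences with and without isoproterenol of the same kind. Up to 5 and 5 are named between experiments, where neither the sign nor the overall call was required. Each list gave up to 4 called members by adjusted p, at any level. A fixed set of 10 held Cebpb and genes of M1 and M2 activation. Replicates of a group and experiment differed by a chi-square per degree of freedom of 6.28 to 13.3. Same-numbered libraries did not deviate together (correlation 0.10 and −0.19 within experiments 1 and 2), so replicate numbers were not used as pairs. Symbols were matched to GENCODE M21 (98.5% of tested genes). Promoter motifs were not described, because 77.9% of tested genes matched a RefSeq promoter, under the share required. Some genes are not reported here. The fits were tested on simulated data, and other settings are compared in the closing section.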

Additional observations from a re-analysis of the deposited data

Results flagged for a closer look

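In 5 of 108 groups of 4 libraries examined, 1 library stood apart from the other 3 by Dixon's criterion, about as many as chance gives at 1 in 20. These were Cdca7 at 2.54 RPM (replicate 2 of experiment 1) and Oas3 at 50.1 RPM (replicate 1 of experiment 2) with Cebpb siRNA, and Fam46c at 6.34 RPM (replicate 1 of experiment 2), Nr4a2 at 4.54 RPM (replicate 2 of experiment 2) and multimapping reads at 21.9% with control siRNA.

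The siRNA effect differed with and without isoproterenol, by limma's interaction test, for Nr4a2 (log2 1.76), Cytip (1.39), Havcr2 (1.00), Neurl3 (0.70), Osbp2 (−1.39), Acod1 (−0.99), Pcdh7 (−0.88), Slpi (−0.87), Lyz2 (−0.74), Il1rn (−0.65), Cebpd (−0.62), Ccl4 (−0.58), Ung (−0.52), Cdr2 (−0.51), Ccl9 (−0.46), Gpr84 (−0.44) and Clec4e (−0.37). It differed between experiments, as experiment 2 minus experiment 1, for Neat1 (1.17), Nfkbie (1.09), Neurl1b (1.05), Mmp9 (0.75), Cmpk2 (−1.32), Oasl1 (−1.19), Ifi44 (−1.12), Oas3 (−0.97) and Ifi204 (−0.95).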

How the results depend on the processing

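The count of 6828 called genes stayed within 1.5 times under the alternatives run, from 5481 (experiment 2 alone) to 6861 (median-ratio size factors), and was 6294 to 6683 when 1 library was left out. With values as deposited, 2982 genes were higher and 3739 lower. With a replicate block 6565 genes were called, and the block ended the called isoproterenol differences of Ung and Clec4e (adjusted p = 0.0626 and 0.0811) and changed no other call of a named gene. Experiment 2 alone gave 364 genes beyond 2-fold, beside 566. The count of genes whose effect differed between experiments ran from 0 to 163 when 1 library was left out, and that of genes differing with isoproterenol was 10 without the experiment term, beside 26. In experiment 1 alone Neurl1b (−0.24) and Mmp9 (−0.23) had the opposite sign. Without the experiment term the called genes Cmpk2, Oas3 and Ifi204 lost their calls, as did 14 of 17 isoproterenol differences above 10 RPM, among them Slpi and Neurl3 (adjusted p = 0.149 each), Havcr2 (0.208), Lyz2 (0.299), Acod1 and Pcdh7 (0.999 each). In the same setting respiratory chain genes were higher in 8 and lower in 5, beside 13 and 8, and oxidase and NRF2 genes lower in 3, beside 6. The causes were not tested. The floor of 13 to 24 reads limits what can be said of genes near 1 RPM.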
